A study of Homo sapiens with 24 samples.

Results

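The expression response of MV4-11 cells to the histone deacetylase inhibitor SAHA was read from 6 arrays, 3 of cells given SAHA and 3 of cells given its solvent DMSO. They were chosen by their labels alone from the 24 arrays of a study that treated MV4-11 and MOLM-14 with SAHA, with ABT-869, with both drugs together or with DMSO, 3 arrays to a group. Per the study's methods, SAHA was given at 6 µM and ABT-869, an inhibitor of the receptor tyrosine kinase FLT3, at 3 nM. Exposure lasted 24 hours, and the concentrations inside the combination were not restated. Both lines are established human acute myeloid leukemia lines of the monocytic M5 subtype that carry FLT3-ITD, an internal duplication that keeps the FLT3 receptor active. MV4-11 has only the mutated allele and MOLM-14 has a wild-type allele beside it. The labels call the 3 arrays of a group biological replicates and do not say whether they came from separate cultures, so each p-value measures the spread between these arrays. The study asked which genes answered each single drug and the combination, and SAHA against DMSO reads the response to SAHA alone. MV4-11 is 1 line, and each treatment was read at 1 dose and 1 time.

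Acetyl groups on histone tails loosen the contact between histones and DNA, and histone deacetylases remove them. SAHA, also known as vorinostat, is a hydroxamic acid that binds the zinc ion in the active site of these enzymes. Acetylation then builds up on histones and on many other proteins, and in leukemia cells the class of drug is known for cell cycle arrest, partial maturation and cell death. ATF4 is a transcription factor whose mRNA is translated more when cells lack amino acids or carry unfolded proteins. It switches on transporters that bring amino acids in, enzymes that make them, and the synthetases that charge them onto tRNA.

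The arrays carried 54613 probe sets besides the control sets, each a group of short probes for 1 transcript. A signal is the brightness of a probe set after the authors' scaling, and signals under 32 were raised to 32, called the floor here, before log2 was taken. The 6 arrays were close in quality, with small shifts between the treatments. Their median signal was 80.4 to 87.8 with SAHA and 89.1 to 91.8 with DMSO. Between 28.6% and 31.2% of the probe sets were under the floor with SAHA, and between 27.5% and 28.5% with DMSO. Arrays of 1 group correlated at 0.979 to 0.980 with SAHA and 0.975 to 0.976 with DMSO. The ratio of 3′ to 5′ probe sets of ACTB was 1.13 to 1.17 with SAHA and 1.21 to 1.28 with DMSO, and that of GAPDH was 0.957 to 0.997 on all 6. All 8 defining markers of acute myeloid leukemia cells were above the floor on all 6 arrays. Of markers of other cell types, 4 of 10 lymphoid, 2 of 3 erythroid, 3 of 5 platelet and 3 of 7 epithelial and stromal ones were above the floor on all 6 arrays. The brightest were the keratin KRT18, at up to 988, and the B cell factor PAX5, at up to 740, while CD3G of T cells, PPBP of platelets and KRT19 of epithelium were at the floor on all 6. The summed signal of 10 lymphoid markers was 1199 to 1387 with SAHA and 1507 to 1754 with DMSO, that of 5 platelet markers 362.2 to 500.1 with SAHA and 465.1 to 658.6 with DMSO, that of 7 epithelial and stromal markers 1342 to 1391 with SAHA and 1502 to 1740 with DMSO, and that of 3 erythroid markers 271 to 303 with SAHA and 257 to 322 with DMSO. The part of these shifts, of the median signal and of the ACTB ratio in the results was not tested. Since RNA was taken from whole cultures, fewer cells of a type and less RNA per cell cannot be told apart.

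SAHA raised 1598 probe sets and lowered 1166 relative to DMSO at an adjusted p under 0.05, which is 2.93% and 2.14% of those tested. Of these, 409 rose (0.749%) and 276 fell (0.505%) by at least 2-fold. With 1 probe set for each of 19775 genes, 934 genes rose (4.72%) and 649 fell (3.28%), and the median change over all genes was −0.01 on the log2 scale. In all 2764 called probe sets the 3 SAHA values and the 3 DMSO values did not overlap. Where lack of overlap is given below for a called gene, it therefore describes the values and adds no support to the call. The counts were sensitive to the number of arrays: with any 1 of the 6 left out, 782 to 950 probe sets rose and 523 to 672 fell. They were also sensitive to scaling: rises made up 57.8% of the calls, but 74.3% (1440 against 499) when each array was centred on its median. Centring moved the changes of probe sets above the floor on all 6 arrays up by a median of 0.09.

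**Figure D1:**
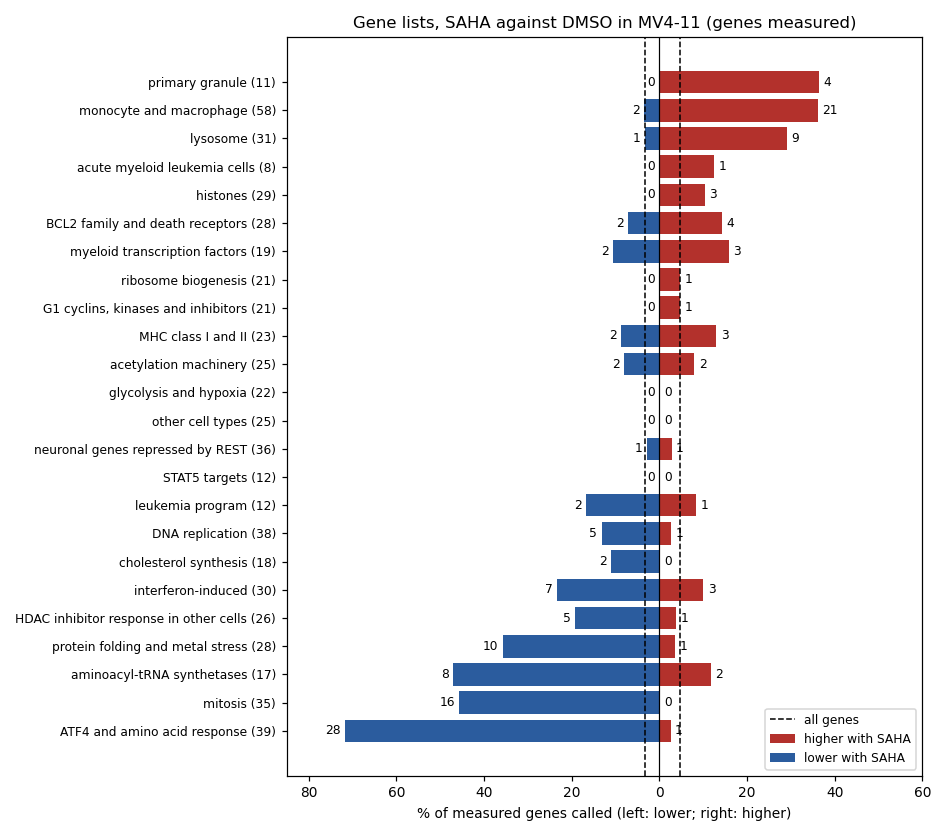
Share of the measured members of each gene list that rose (to the right) or fell (to the left) with SAHA against DMSO in MV4-11, in percent, with the share over all genes as dashed lines. The ATF4 list stands out on the left with 71.8% of its members lower, and the monocyte list on the right with 36.2% higher, beside 3.28% lower and 4.72% higher over all genes.

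Genes that ATF4 and amino acid supply control fell together. Of 39 genes measured, 28 fell, 1 rose and 10 were not called, with a median log2 change of −0.76, and the sign was negative for 38 of them. With any 1 array left out, 20 to 22 fell. The binding site of ATF4 with its partners of the C/EBP family, the C/EBP-ATF response element, has the core TGATGNAA. This core was looked for on both strands in RefSeq promoter windows of GRCh38.p14, which run from 250 bases before each start to 50 bases after it. It was present for 11 of the 32 list genes with a window (34.4%), beside 1217 of 27305 genes in the whole table (4.46%). The 11 comprised 8 of the 24 list genes that fell and 3 of the 8 that did not. A match is a description of the letters, not evidence of binding. The stretches around the core are shown for 6 of the 8 genes that fell, because they hold the site this gene list is named for, with the core in capitals.
ASNS (chr7:97872439-97872506, minus strand): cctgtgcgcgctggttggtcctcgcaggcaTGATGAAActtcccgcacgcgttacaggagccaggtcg
CHAC1 (chr15:40953232-40953299, plus strand): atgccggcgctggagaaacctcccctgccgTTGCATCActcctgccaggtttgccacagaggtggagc
CEBPG (chr19:33374041-33374108, plus strand): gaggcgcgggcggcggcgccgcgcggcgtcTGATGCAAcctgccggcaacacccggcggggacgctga
ATF3 (chr1:212565186-212565253, plus strand): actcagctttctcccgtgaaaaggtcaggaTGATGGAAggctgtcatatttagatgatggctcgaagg
JDP2 (chr14:75427976-75428021, plus strand): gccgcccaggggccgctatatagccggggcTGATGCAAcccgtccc
SLC1A5 (chr19:46784874-46784941, minus strand): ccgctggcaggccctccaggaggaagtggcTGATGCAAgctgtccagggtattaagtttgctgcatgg
Each is written 5′ to 3′ on the strand of its gene. The core began 68 bases before the start of ASNS, 42 before CEBPG, 191 before ATF3, 16 before JDP2 and 97 before SLC1A5. In CHAC1, 209 bases before the start, it lay on the opposite strand and so reads TTGCATCA.

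Among the 17 regulators and effectors of the response, 14 fell and none rose. TRIB3, a pseudokinase that binds AKT and dampens ATF4 itself, gave signals of 1745, 1793 and 1808 with SAHA, against 10385, 9692 and 10382 with DMSO (log2 change −2.51, SE 0.122, adjusted p = 1.81e-05). ATF5, a transcription factor translated by the same mechanism as ATF4, gave signals of 769, 893 and 774 with SAHA, against 5831, 3641 and 3832 with DMSO. CHAC1, an enzyme that breaks down glutathione, gave signals of 164.5, 176 and 178 with SAHA, against 826, 865 and 915 with DMSO. For these 3 genes the highest SAHA array lay far below the lowest DMSO array, and their log2 changes were −2.51, −2.42 and −2.33. DDIT3, the stress transcription factor CHOP, had signals of 659.6, 589.9 and 712 with SAHA, against 2772, 2584 and 2987 with DMSO (log2 change −2.09, SE 0.134, adjusted p = 8.84e-05). CEBPB, a partner of ATF4 at its sites and a transcription factor of myeloid maturation, had signals of 1573, 1736 and 1641 with SAHA, against 4402, 4721 and 4670.3 with DMSO (log2 change −1.48, SE 0.0845, adjusted p = 4.24e-05). In both genes the 3 arrays of a treatment lay close together and far from those of the other. NUPR1, a stress-induced chromatin protein, was under the floor on 2 SAHA arrays, with signals of 5.6, 16.8 and 88.2 with SAHA, against 131, 179 and 125 with DMSO (log2 change −1.67, SE 0.366, adjusted p = 0.0309). The secreted hormone STC2 (log2 change −1.12, adjusted p = 0.0185), ATF3 (−1.0, adjusted p = 0.00487), the AP-1 family repressor JDP2 (−0.85, adjusted p = 0.0134), PPP1R15A, which reverses the block on translation (−0.78, adjusted p = 0.0091), the leucine sensor SESN2 (−0.76, adjusted p = 0.035), the translation inhibitor EIF4EBP1 (−0.69, adjusted p = 0.00266) and CEBPG (−0.63, adjusted p = 0.00245) fell by less. The ATF4 mRNA itself gave signals of 12774, 13317 and 14757 with SAHA, against 18205, 18101 and 18183 with DMSO, a fall of small size (log2 change −0.42, SE 0.0972, adjusted p = 0.039). The members not called were DDIT4 (−0.36, adjusted p = 0.113), VLDLR (−0.35, adjusted p = 0.195) and CHAC2 (−0.30, adjusted p = 0.502).

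Of 10 amino acid transporters, 6 fell, and the other 4 had negative changes that were not called. The pair that forms the large neutral amino acid exchanger fell together. SLC7A5, its light chain, gave signals of 1609, 1644 and 1755 with SAHA, against 7504, 6915 and 7789 with DMSO (log2 change −2.15, SE 0.144, adjusted p = 0.000109). SLC3A2, its heavy chain, gave signals of 722, 802 and 912 with SAHA, against 2199, 2249 and 2558 with DMSO (log2 change −1.53, SE 0.123, adjusted p = 0.000302). The cationic amino acid carrier SLC7A1 (−0.74, adjusted p = 0.00244), the leucine carrier SLC43A1 (−0.65, adjusted p = 0.0184), the glutamine carriers SLC1A5 (−0.47, adjusted p = 0.0462) and SLC38A2 (−0.40, adjusted p = 0.0154) fell by less than 1 on the log2 scale. The cystine carrier SLC7A11, whose import feeds glutathione synthesis, was at 316 to 393 with SAHA, against 416 to 611 with DMSO, and its change of −0.60 was not called (adjusted p = 0.091). Centring each array on its median left 3 of the 6 transporter calls.

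Of 12 enzymes that make amino acids or carry one-carbon units, 8 fell and 1 rose. ASNS, which makes asparagine, gave signals of 1242, 1512 and 1566 with SAHA, against 5490.2, 5170 and 5488 with DMSO (log2 change −1.91, SE 0.108, adjusted p = 4.24e-05). PSAT1 and PHGDH, which act in serine synthesis, gave signals of 3462, 3970.4 and 4138 with SAHA, against 11389.9, 10915 and 11122 with DMSO, and signals of 1899.7, 1915 and 2387 with SAHA, against 4723, 4557 and 4736 with DMSO. PHGDH had a log2 change of −1.18 and PSAT1 one of −1.53, and for all 3 enzymes every SAHA array was below every DMSO array. The transsulfuration enzymes CTH and CBS, which lead from homocysteine to cysteine, had log2 changes of −1.90 (SE 0.108) and −1.41 (SE 0.127). The mitochondrial folate enzymes ALDH1L2 and MTHFD2 had changes of −1.59 (SE 0.0899) and −0.67 (SE 0.129), and the proline enzyme PYCR1 one of −0.53 (SE 0.0846). The exception was ALDH18A1, which makes the precursor of proline and ornithine. It gave signals of 3503, 3279 and 3399.7 with SAHA, against 1694, 1758 and 1888 with DMSO (log2 change 0.93, SE 0.103, adjusted p = 0.0014), and both of its probe sets were called higher. SHMT2 (−0.46, adjusted p = 0.0782), PSPH (−0.13, adjusted p = 0.638) and MTHFD1L (−0.29, adjusted p = 0.808) were not called by the probe set that stands for the gene.

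**Figure D2:**
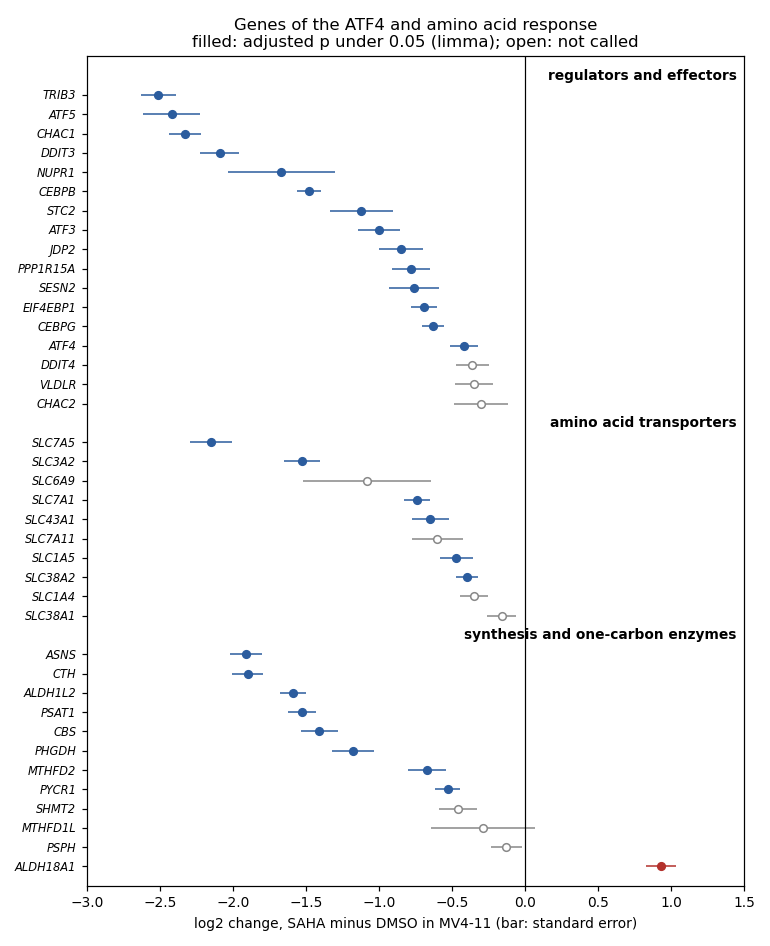
Log2 change with SAHA against DMSO in MV4-11 for the 39 genes of the ATF4 list, in 3 groups by role, with standard errors as bars, filled points for called genes and open points for genes not called. TRIB3 is lowest at −2.51 and ALDH18A1, at 0.93, is the single point right of 0.

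The cytosolic aminoacyl-tRNA synthetases, which load amino acids onto tRNA, were split. Of 17 measured, 8 fell (47.1%) and 2 rose (11.8%), beside 3.28% and 4.72% of all genes. AARS1 for alanine gave signals of 3489, 3866 and 4097 with SAHA, against 7708, 7109 and 7960.5 with DMSO (log2 change −0.99, SE 0.0967, adjusted p = 0.000719). YARS1 (−0.91, adjusted p = 0.000647), CARS1 (−0.91, adjusted p = 0.00259), GARS1 (−0.84, adjusted p = 0.00261), WARS1 (−0.82, adjusted p = 0.00167), SARS1 (−0.65, adjusted p = 0.0163), IARS1 (−0.58, adjusted p = 0.00599) and LARS1 (−0.46, adjusted p = 0.0474) fell as well. RARS1, for arginine, went the other way with signals of 3673, 3594 and 3140 with SAHA, against 1834, 1631 and 1473 with DMSO (log2 change 1.08, SE 0.121, adjusted p = 0.00152). FARSA, a subunit of the synthetase for phenylalanine, was 0.39 higher, a call that was lost with any 1 array left out (adjusted p up to 0.143 over the alternatives).

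Of 58 genes of monocytes and macrophages measured, 21 rose (36.2%), 2 fell (3.45%) and 35 were not called, beside 4.72% and 3.28% of all genes. With any 1 array left out, 15 to 18 of the 58 rose. The change was positive for 33 of these genes and negative for 23, with a median of 0.19 on the log2 scale. Surface receptors and their partners made up 13 of the rises among 36 measured. TREM1, a receptor that amplifies inflammatory signalling, gave signals of 401, 391 and 367 with SAHA, against 34.7, 83.4 and 72.2 with DMSO (log2 change 2.70, SE 0.352, adjusted p = 0.00301). CD36, a scavenger receptor for lipids, gave signals of 401, 314 and 364 with SAHA, against 81.3, 72.7 and 107 with DMSO (log2 change 2.06, SE 0.168, adjusted p = 0.000317). CD86, a ligand that costimulates T cells, gave signals of 1368, 1316 and 1210.1 with SAHA, against 362, 389 and 370.4 with DMSO (log2 change 1.80, SE 0.12, adjusted p = 0.000109). In each of these 3 the lowest SAHA array stood far above the highest DMSO array. LY96, the partner of TLR4 in binding endotoxin, gave signals of 2272, 2123 and 1972 with SAHA, against 594, 539 and 592 with DMSO (log2 change 1.88, SE 0.111, adjusted p = 4.66e-05). FCGR2B, an inhibitory receptor for IgG, gave signals of 5222, 5036 and 5471 with SAHA, against 1895, 1978 and 2098 with DMSO (log2 change 1.40, SE 0.108, adjusted p = 0.000243). The Fc receptor genes share sequence, so FCGR2A (0.80, adjusted p = 0.00829) and FCGR2B may share probe signal. CLEC12A (1.45, adjusted p = 0.00303), the chemokine receptors CCR2 (1.08, adjusted p = 0.00298) and CX3CR1 (0.53, adjusted p = 0.0321), the integrin ITGAM (0.84, adjusted p = 0.00148), the M-CSF receptor CSF1R (0.82, adjusted p = 0.0166), LY86 (0.82, adjusted p = 0.00308) and TLR2 (0.60, adjusted p = 0.0206) were also higher. CD14, the classical monocyte marker, was under the floor on all 6 arrays. The complement receptor C5AR1 fell to the floor, with signals of 14.9, 16.2 and 5 with SAHA, against 80.9, 49.5 and 67.2 with DMSO, at least 2.02-fold lower. Its call was lost with a floor of 1, with a floor of 64 and with only the 6 SAHA and DMSO arrays.

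Of 13 monocyte effectors 6 rose and none fell. MNDA, an interferon-inducible nuclear protein of the myeloid lineage, had the largest rise of all genes represented here, with signals of 1986, 1893 and 2108 with SAHA, against 223, 199 and 200.5 with DMSO (log2 change 3.27, SE 0.116, adjusted p = 3.59e-06). S100A8 and S100A9, which pair as the calcium-binding complex calprotectin, gave signals of 1154, 1389 and 1302 with SAHA, against 229, 239 and 315 with DMSO (log2 change 2.31, SE 0.211, adjusted p = 0.000564), and signals of 270.2, 295 and 234 with SAHA, against 120.3, 99.2 and 90.1 with DMSO (log2 change 1.37, SE 0.195, adjusted p = 0.00456). None of the 3 had overlapping groups. The pore-forming protein MPEG1 (1.63, adjusted p = 0.00703) and the prothrombinase FGL2 (1.10, adjusted p = 0.00592) rose as well. Lysozyme, LYZ, was bright in both treatments at 16075 to 17311 with SAHA, against 12300.5 to 13245 with DMSO, and its call was lost with any 1 array left out (adjusted p up to 0.1 over the alternatives). Among 4 subunits of the phagocyte oxidase NCF4 rose (0.49, adjusted p = 0.0155). Of 5 cytokines, the neutrophil attractant CXCL8 rose (1.31, adjusted p = 0.0454) and TNF fell, with signals of 684, 722 and 744 with SAHA, against 1300.2, 1208 and 1622 with DMSO (log2 change −0.93, SE 0.184, adjusted p = 0.0204), a call lost in 5 of the 6 fits that left out 1 array. IL1B was not called by the probe set that stands for the gene, but another of its probe sets was called higher (0.83, adjusted p = 0.00654).

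**Figure D3:**
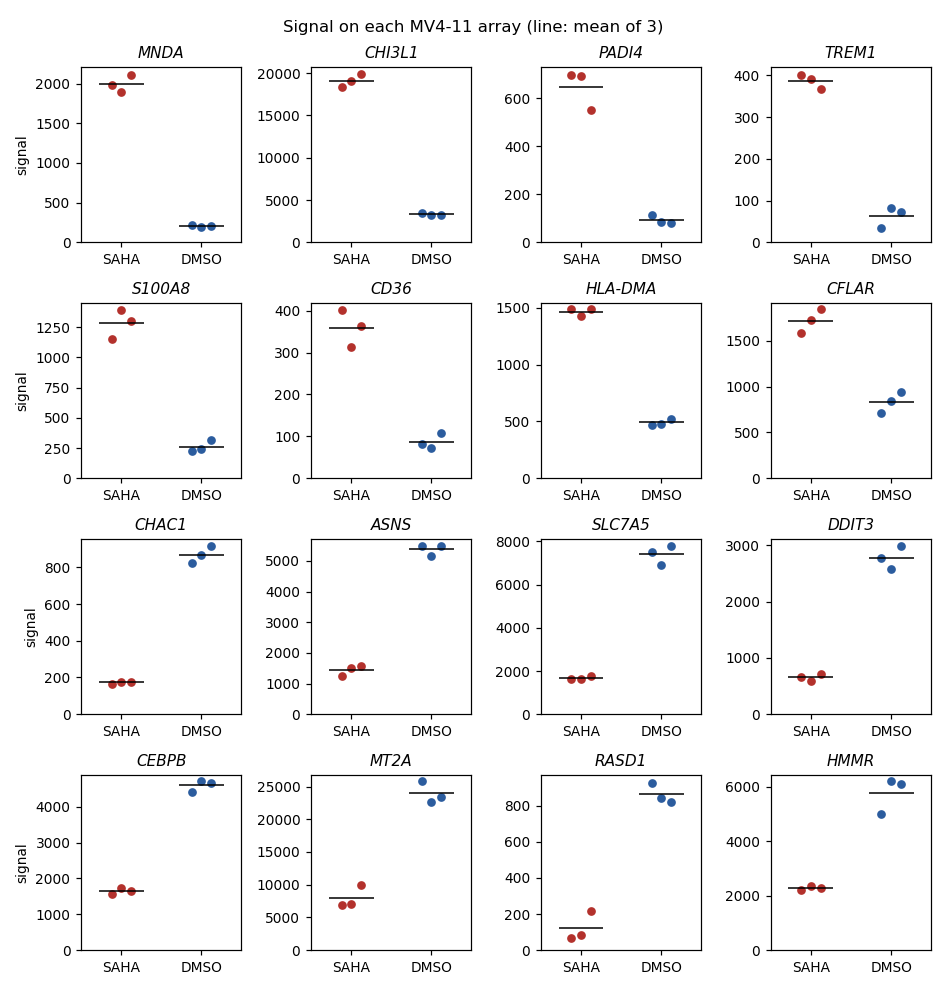
Signal of 16 genes on each of the 6 MV4-11 arrays (vertical axes from 0, linear scale), SAHA left of DMSO, with a dot for each array and a line at the mean of 3. No panel has overlapping groups: MNDA lies at 1893 to 2108 with SAHA and 199 to 223 with DMSO, and CHAC1 at 164.5 to 178 with SAHA and 826 to 915 with DMSO.

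Proteins of the primary granule are made at the promyelocyte stage, before monocytes mature. Of 11 genes of the granule list measured, 4 rose (36.4%, beside 4.72% of all genes) and none fell. RNASE2, a ribonuclease of granules, gave signals of 35391, 35409 and 36318 with SAHA, against 16784, 17496 and 15823 with DMSO (log2 change 1.10, SE 0.104, adjusted p = 0.000642). The proteinase PRTN3 gave signals of 11396, 10929 and 10717 with SAHA, against 5655, 5363 and 5170.2 with DMSO (log2 change 1.03, SE 0.105, adjusted p = 0.000902). On both, every SAHA array was well above every DMSO array. The complement protease CFD (0.84, adjusted p = 0.0106) and MS4A3 (0.54, adjusted p = 0.0167) also rose, the second not in 5 of the 6 fits without 1 array. The members AZU1 (0.15, adjusted p = 0.533), ELANE (0.19, adjusted p = 0.26) and CTSG (0.22, adjusted p = 0.35) were not called, nor was MPO (1019 to 1102 with SAHA, against 1279 to 1522 with DMSO, log2 change −0.41, adjusted p = 0.169).

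Lysosomal genes rose in part: 9 of 31 measured were higher (29.0%) and 1 was lower (3.23%), beside 4.72% and 3.28% of all genes. With any 1 array left out, 4 to 6 of the 31 were higher. PSAP, the precursor of the saposins that help degrade sphingolipids, gave signals of 9362, 8952 and 10096 with SAHA, against 4744, 4723 and 4391 with DMSO (log2 change 1.03, SE 0.0982, adjusted p = 0.000642). ATP6V0D1, a subunit of the proton pump, gave signals of 2478, 2499.8 and 2769.5 with SAHA, against 1396, 1429 and 1590 with DMSO (log2 change 0.81, SE 0.0948, adjusted p = 0.00179). MAN2B1, an enzyme that trims mannose, gave signals of 9104, 8584 and 9096 with SAHA, against 5072, 4919 and 5442 with DMSO (log2 change 0.80, SE 0.109, adjusted p = 0.00385). These 3 had groups far apart, while the cathepsins CTSZ (1.10, adjusted p = 0.0237) and CTSA (0.93, adjusted p = 0.0232) lost their calls in 4 and 5 of the 6 fits that left out an array. ATP6V1A (0.65, adjusted p = 0.021), LAMP1 (0.53, adjusted p = 0.0112), CTSD (0.50, adjusted p = 0.0394) and PPT1 (0.49, adjusted p = 0.0283) completed the rises. The list member IDS was not called by the probe set that stands for the gene. Other probe sets of IDS were called higher, with changes such as 1.30 (adjusted p = 0.0382) and 0.78 (adjusted p = 0.00848). TFEB, the transcription factor that drives lysosomal genes, was lower (−0.69, adjusted p = 0.0234), and its call was lost with any 1 array left out.

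Among genes of MHC antigen presentation, 3 of class II rose (27.3%, beside 4.72% of all genes) and none of class I did. HLA-DMA, a chain of the exchange factor that removes the class II placeholder peptide, gave signals of 1489, 1428 and 1487 with SAHA, against 473, 480.5 and 521 with DMSO (log2 change 1.58, SE 0.116, adjusted p = 0.000192). Its partner HLA-DMB gave signals of 534, 408 and 457 with SAHA, against 219, 205 and 285 with DMSO (log2 change 0.99, SE 0.178, adjusted p = 0.0135), and HLA-DQB1 gave signals of 977, 917 and 855 with SAHA, against 471, 494 and 673 with DMSO (log2 change 0.76, SE 0.147, adjusted p = 0.0183). The groups did not overlap in any of the 3, but HLA-DMB and HLA-DQB1 lost their calls in 3 and 4 of the 6 fits that left out an array. No other of the 11 class II genes was called. Of 12 class I genes all had a negative change, with a median of −0.27. The peptide pump subunit TAP1 (−0.60, adjusted p = 0.0276) and HLA-G (−0.51, adjusted p = 0.0224) were called lower (16.7%, beside 3.28% of all genes). HLA genes are close copies of each other, so single members are uncertain, and neither class I call was left after centring the arrays.

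The 15 largest rises were ranked among probe sets above the floor on all 6 arrays. Of those outside these lists, CHI3L1 was bright. It encodes a secreted chitinase-like glycoprotein of macrophages and gave signals of 18306, 19016 and 19834 with SAHA, against 3473, 3219 and 3238 with DMSO (log2 change 2.52, SE 0.0907, adjusted p = 3.59e-06). PADI4, which turns arginine into citrulline on histones in granulocytes, gave signals of 697, 690.4 and 552 with SAHA, against 115, 85 and 81.5 with DMSO (log2 change 2.80, SE 0.269, adjusted p = 0.000677). ANXA1, an anti-inflammatory annexin, gave signals of 2185, 2646 and 2648 with SAHA, against 581, 596 and 572 with DMSO (log2 change 2.09, SE 0.12, adjusted p = 4.24e-05). The DMSO arrays of all 3 genes agreed closely with each other, and the SAHA arrays lay far above them. SEMA6A, a semaphorin, rose to 337, 359 and 365 with SAHA, against 55.9, 35.1 and 50.7 with DMSO (log2 change 2.93, SE 0.403, adjusted p = 0.00392). STAP1, an adaptor of tyrosine kinase signalling, had signals of 407, 391 and 427 with SAHA, against 104, 34.3 and 95.4 with DMSO (log2 change 2.54, SE 0.385, adjusted p = 0.00596). GAPT, an adaptor that binds GRB2, had signals of 523, 468 and 396 with SAHA, against 71.9, 111 and 114 with DMSO (log2 change 2.25, SE 0.201, adjusted p = 0.000527). In these genes the DMSO signals were near the floor, so the size of the fold depends on low values. GNG11, a G protein subunit (2.33, adjusted p = 0.0014), ART3 (2.26, adjusted p = 0.000568) and INPP4B, a phosphoinositide phosphatase (2.10, adjusted p = 0.0014), were also above 2 on the log2 scale. The rises of TMEM158 (2.31, adjusted p = 0.0187), TMEM201 (2.20, adjusted p = 0.0167) and KCTD12 (2.12, adjusted p = 0.0307) were lost in 3, 4 and 3 of the 6 fits that left out 1 array. For KCTD12 these were the fits without a SAHA array. Another probe set of KCTD12 was also called higher (1.81, SE 0.0804, adjusted p = 1.42e-05).

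Among probe sets above the floor on all 6 arrays, RASD1 fell most. It encodes a small GTPase of the Ras family induced by glucocorticoids and gave signals of 68.5, 82.4 and 218 with SAHA, against 926, 843 and 820 with DMSO (log2 change −3.01, SE 0.371, adjusted p = 0.00238), and replicate 3 of SAHA stood above the other 2 SAHA arrays while still far below any DMSO array. INHBE, a hepatokine subunit of the activin family, gave signals of 60.7, 52.8 and 83.9 with SAHA, against 361, 388 and 413 with DMSO (log2 change −2.58, SE 0.176, adjusted p = 0.000118), a call lost with a floor of 1. KCNG1, a modifier of voltage-gated potassium channels, gave signals of 169, 88.8 and 212 with SAHA, against 613, 649 and 762 with DMSO (log2 change −2.19, SE 0.382, adjusted p = 0.0115). Neither gene overlapped between the treatments. The olfactory receptor pseudogene OR7E47P (−2.71, adjusted p = 0.003) belongs to a family of close copies and is uncertain. The mast cell tryptase TPSAB1, also one of several near-identical copies, gave signals of 48.2, 63.3 and 113 with SAHA, against 239, 309.8 and 206 with DMSO (log2 change −1.82, SE 0.268, adjusted p = 0.00527). CAP2, a regulator of actin (−1.80, adjusted p = 0.0172), and the non-coding LINC02806 (−2.03, adjusted p = 0.0245) lost their calls in 5 and 4 of the 6 fits that left out 1 array. The rest of the 15 largest falls, TRIB3, ATF5, CHAC1, SLC7A5, DDIT3, CTH, ASNS and MT1G, belong to the lists described elsewhere.

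Among called probe sets, 31 were higher with SAHA while all 3 DMSO arrays were at the floor, and 47 were lower with all 3 SAHA arrays at the floor. Here the fold is a bound, the mean log2 of the bright group against the floor. ADAM28, a metalloproteinase of lymphocytes, had signals of 198, 255 and 279 with SAHA, against 9.6, 11.5 and 10.1 with DMSO, at least 7.55-fold higher. AGXT, a peroxisomal aminotransferase, had signals of 132, 242 and 216 with SAHA, against 10.3, 7.2 and 6.8 with DMSO, at least 5.95-fold higher. DPEP2, a dipeptidase that acts on leukotriene D, had signals of 130.5, 128 and 152 with SAHA, against 30.2, 31.5 and 14 with DMSO, at least 4.27-fold higher. The DMSO signals of these 3 carry no order, since all were at or under the floor. The sterol hydroxylase CYP27A1 was at least 3.93-fold higher, the synaptic vesicle protein SV2B at least 3.7-fold and the autophagy receptor NBR1 at least 2.15-fold. For COL1A1, a collagen chain at least 3.78-fold higher by this probe set, 2 of 5 probe sets rose. For the Notch ligand JAG1, at least 2.5-fold higher by 1 probe set, 2 others were called lower, so its direction is not settled. In the other direction, BAIAP2L2, which bends membranes, had signals of 18.3, 29.3 and 12 with SAHA, against 100.4, 104 and 86.4 with DMSO, at least 3.02-fold lower. SLC4A1, the anion exchanger of red cells, had signals of 24.3, 23.3 and 18.6 with SAHA, against 86.8, 83 and 115 with DMSO, at least 2.93-fold lower. GSN-AS1 was at least 2.32-fold lower, the ectonucleotidase ENPP1 at least 2.08-fold and the exonuclease ERI2 at least 1.99-fold. E2F2 and MS4A1, at least 2.94-fold and 2.13-fold lower by a dim probe set, were not called by their brightest ones. The calls of NBR1, JAG1, GSN-AS1, ENPP1, ERI2 and MS4A1 were lost both with a floor of 1 and with a floor of 64, and that of E2F2 with a floor of 64.

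Of 11 zinc-dependent deacetylases, the targets of SAHA, 2 rose (18.2%) and 1 fell (9.09%), beside 4.72% and 3.28% of all genes. HDAC9 gave signals of 545, 534 and 608 with SAHA, against 1309, 1242 and 1185 with DMSO (log2 change −1.15, SE 0.124, adjusted p = 0.00128). HDAC4 gave signals of 927, 1020 and 1027 with SAHA, against 786, 615 and 664 with DMSO (log2 change 0.53, SE 0.106, adjusted p = 0.0207), and HDAC1 gave signals of 7966, 7495 and 7476 with SAHA, against 6027, 5762 and 5864 with DMSO (log2 change 0.38, SE 0.0839, adjusted p = 0.033). The 2 rises were small, and they were lost in 4 and 6 of the 6 fits that left out 1 array. HDAC2 (−0.08, adjusted p = 0.743), HDAC3 (0.20, adjusted p = 0.426), HDAC5 (−0.47, adjusted p = 0.138), HDAC6 (−0.10, adjusted p = 0.72), HDAC7 (−0.28, adjusted p = 0.574), HDAC8 (0.44, adjusted p = 0.395), HDAC10 (−0.27, adjusted p = 0.704) and HDAC11 (0.72, adjusted p = 0.387) were not called. Among 12 acetyltransferases KAT6A, a fusion partner in monocytic leukemia, was lower (−0.66, adjusted p = 0.00491), though not called after centring. Of 29 histone genes 3 rose (10.3%, beside 4.72% of all genes). H2AC6 gave signals of 3610.5, 4853 and 6099 with SAHA, against 1802, 1692 and 1686 with DMSO (log2 change 1.46, SE 0.183, adjusted p = 0.00254), and H2BC5 gave signals of 2151, 2379 and 3112 with SAHA, against 1117, 1177 and 1143 with DMSO (log2 change 1.14, SE 0.146, adjusted p = 0.00291). In both, the 3 SAHA arrays were spread more widely than the 3 DMSO arrays without overlapping them. H2AC8 was dim, at 66.3 to 83.3 with SAHA, against 7.3 to 41.9 with DMSO (log2 change 1.11, SE 0.175, adjusted p = 0.0071), and its call was lost with a floor of 1 and with a floor of 64. Histone genes of a type are close copies, so single members are uncertain.

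Of 21 genes described as induced by histone deacetylase inhibitors in other cells, 1 rose and 4 fell here, and 1 of 5 described as repressed fell. The death ligand TNFSF10 rose (0.91, adjusted p = 0.00849). CDKN1A, the cell cycle inhibitor p21 and the best known of them, gave signals of 6946, 6885 and 7985 with SAHA, against 5525, 5472 and 5464 with DMSO. Its 3 SAHA arrays all lay above its DMSO arrays, but the change was not called (log2 change 0.40, SE 0.108, adjusted p = 0.0669). CDKN1A stayed uncalled under 11 of 16 alternatives. Under the others, among them all 24 arrays, quantile normalization and limma-trend, it was called higher (lowest adjusted p 0.00755). The stress ligand MICB was lower (−0.52, adjusted p = 0.0441). The telomerase catalytic protein TERT gave signals of 93.2, 193 and 187 with SAHA, against 353, 376 and 458 with DMSO (log2 change −1.39, SE 0.259, adjusted p = 0.0155). Its call was lost when DMSO replicate 3, its highest array, was left out, and over all alternatives its adjusted p reached 0.0879. The other 3 that fell were metallothioneins, small proteins that bind zinc and copper. All 7 metallothioneins measured fell, with a median of −1.61. MT2A gave signals of 6881, 7109 and 9887 with SAHA, against 25770.3, 22637 and 23401 with DMSO (log2 change −1.61, SE 0.192, adjusted p = 0.00199), and MT1G gave signals of 3309, 2789 and 3998 with SAHA, against 12358, 11314 and 11259.8 with DMSO (log2 change −1.81, SE 0.134, adjusted p = 0.000192). On each, replicate 3 was the highest of the SAHA arrays and still far below any DMSO array. MT1E (−1.74, adjusted p = 0.000568), MT1H (−1.64, adjusted p = 0.00113), MT1X (−1.53, adjusted p = 0.00163), MT1F (−1.45, adjusted p = 0.000674) and MT1M (−1.38, adjusted p = 0.0139) fell too. These genes are near-identical copies, so the 7 probe sets may read each other's transcripts and are not 7 separate observations.

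Of 13 genes of the endoplasmic reticulum stress response 3 fell (23.1%, beside 3.28% of all genes). The chaperone HSPA5 gave signals of 5045, 5662 and 6136 with SAHA, against 9205, 9832 and 8720 with DMSO (log2 change −0.72, SE 0.101, adjusted p = 0.00419), and XBP1 (−0.56, adjusted p = 0.0188) and the secreted factor MANF (−0.51, adjusted p = 0.031) fell by less. Of 8 cytosolic and mitochondrial chaperones only HSPE1 was called, 0.49 higher, and 5 of the 6 fits without 1 array lost it.

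Genes of mitosis were lower. All 35 measured had a negative change with a median of −0.42, and 16 fell (45.7%, beside 3.28% of all genes). The number was not stable: 6 to 8 fell with any 1 array left out, and 4 after centring. HMMR, which binds hyaluronan and organises the spindle, gave signals of 2221, 2370.3 and 2291 with SAHA, against 4983, 6213 and 6087 with DMSO (log2 change −1.32, SE 0.128, adjusted p = 0.000714). UBE2C, which hands ubiquitin to targets of the anaphase-promoting complex, gave signals of 2536, 2284 and 2346 with SAHA, against 4701, 4533 and 4685 with DMSO (log2 change −0.96, SE 0.119, adjusted p = 0.00245). KIF2C, a kinesin that corrects faulty attachments, gave signals of 1479, 1383 and 1583 with SAHA, against 2621, 3047 and 2972 with DMSO (log2 change −0.96, SE 0.101, adjusted p = 0.00106). All 3 stood clear of overlap, as did the kinetochore protein NUF2 at 1536 to 1580.5 with SAHA, against 2499 to 2731 with DMSO (log2 change −0.76, SE 0.0909, adjusted p = 0.00199). PLK1 (−0.71, adjusted p = 0.0155), AURKB (−0.60, adjusted p = 0.0152) and the checkpoint kinase BUB1 (−0.53, adjusted p = 0.00449) fell by less than 1 on the log2 scale. CCNB1, the cyclin of mitotic entry, changed by −0.39 (adjusted p = 0.0339).

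Of 38 DNA replication genes measured, 5 fell (13.2%) and 1 rose (2.63%), beside 3.28% and 4.72% of all genes. The median change of the list was −0.13. With each array centred on its median, 2 fell, PRIM1 not among them, and 1 rose. ORC1, which marks origins, gave signals of 941, 759 and 943 with SAHA, against 1522, 1483 and 1388 with DMSO (log2 change −0.74, SE 0.113, adjusted p = 0.00624). PRIM1, a primase subunit, gave signals of 4471, 4392 and 4693 with SAHA, against 6725, 6768 and 7098 with DMSO (log2 change −0.60, SE 0.0945, adjusted p = 0.00703), and the clamp loader RFC4 gave signals of 2434, 2447 and 2446 with SAHA, against 3430.3, 3581 and 3674 with DMSO (log2 change −0.54, SE 0.0734, adjusted p = 0.00356). These 3 did not overlap between treatments. MCM7 was also lower (−0.43, adjusted p = 0.0154), and the licensing factor CDT1 (−0.67, adjusted p = 0.0346) lost its call with any 1 array left out. The single-strand binding protein RPA1 was higher (0.57, adjusted p = 0.0131) and lost its call in 3 of those 6 fits. Of 21 G1 cyclins, kinases and inhibitors 1 rose (4.76%, near the 4.72% of all genes) and none fell. It was CCNE2, with signals of 1108, 970 and 967 with SAHA, against 624, 592 and 686 with DMSO (log2 change 0.68, SE 0.115, adjusted p = 0.0102).

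Genes of cell death moved both ways, with 4 of 28 higher (14.3%) and 2 lower (7.14%), beside 4.72% and 3.28% of all genes. CFLAR, the decoy of caspase 8 known as FLIP, gave signals of 1581, 1732 and 1853 with SAHA, against 716, 844 and 939.8 with DMSO (log2 change 1.05, SE 0.141, adjusted p = 0.00347), and 11 of its 14 probe sets rose. BAX, a pore-forming death effector, gave signals of 817, 718 and 825 with SAHA, against 467, 419 and 491 with DMSO (log2 change 0.78, SE 0.112, adjusted p = 0.00485). PMAIP1, the BH3-only protein NOXA and a known ATF4 target, gave signals of 1099, 1149 and 1143 with SAHA, against 2875, 3123 and 2676 with DMSO (log2 change −1.35, SE 0.121, adjusted p = 0.000527). Both probe sets of BAX and of PMAIP1 were called in the direction given. BIK, a further BH3-only protein, fell (−0.77, adjusted p = 0.00613). BCL2L11, known as BIM, rose by 1 of 7 probe sets (0.60, adjusted p = 0.0223), a call lost in 4 of the 6 fits that left out 1 array. No survival member was called: BCL2 was at 3323 to 3603 with SAHA, against 3516 to 3576 with DMSO, and MCL1 at 5734 to 6614 with SAHA, against 6123 to 6628 with DMSO.

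Interferon-induced genes were split, with 7 of 30 lower (23.3%) and 3 higher (10.0%), beside 3.28% and 4.72% of all genes. IFIT1, IFIT2 and IFIT3, antiviral RNA-binding proteins of the IFIT family, fell together, while IFIT5, also on the list, was not among the genes called. IFIT1 gave signals of 272, 181 and 195 with SAHA, against 718, 915 and 589.5 with DMSO (log2 change −1.78, SE 0.236, adjusted p = 0.0033), IFIT2 gave signals of 259, 292 and 488 with SAHA, against 1099, 1360.4 and 912 with DMSO (log2 change −1.74, SE 0.235, adjusted p = 0.00364), and IFIT3 gave signals of 270, 306 and 284 with SAHA, against 898, 1202 and 668 with DMSO (log2 change −1.65, SE 0.206, adjusted p = 0.00254). The DMSO arrays were spread more widely in these genes than in most, yet the lowest lay above the highest SAHA array in all 3. The regulators IRF7 (−1.39, adjusted p = 0.000677) and IRF1 (−0.64, adjusted p = 0.0047), XAF1 (−1.0, adjusted p = 0.00108) and IFI35 (−0.87, adjusted p = 0.00849) fell as well. In contrast, the virus tether BST2 gave signals of 2095, 1729 and 1985 with SAHA, against 1119.7, 946 and 1149.6 with DMSO (log2 change 0.85, SE 0.108, adjusted p = 0.00261), and the DNA sensor IFI16 gave signals of 1124, 1009 and 1207 with SAHA, against 640.5, 619.7 and 639.8 with DMSO (log2 change 0.81, SE 0.119, adjusted p = 0.00518). IFI6 was also higher (1.86, adjusted p = 0.0219), with 1 DMSO array under the floor, and its call was lost in 4 of the 6 fits that left out 1 array.

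Of 19 myeloid transcription factors 3 rose (15.8%) and 2 fell (10.5%), beside 4.72% and 3.28% of all genes. KLF4, which favours monocytes, gave signals of 1145, 1065 and 1134 with SAHA, against 684, 652 and 678 with DMSO (log2 change 0.73, SE 0.0796, adjusted p = 0.0013). ID2 (0.72, adjusted p = 0.00332) and JUN (0.93, adjusted p = 0.0101) rose too, and beside CEBPB the immediate early gene EGR3 fell (−1.20, adjusted p = 0.0199). The EGR3 call was lost in 4 of the 6 fits without 1 array. The lineage factors SPI1 (0.02, adjusted p = 1.0), CEBPA (0.18, adjusted p = 0.44) and GFI1 (−0.23, adjusted p = 0.325) were not called. Of 12 genes of the leukemic stem cell program, 2 fell (16.7%) and 1 rose (8.33%), beside 3.28% and 4.72% of all genes. TERT and the demethylase family member JMJD1C (−0.57, adjusted p = 0.00568) fell. GATA2 rose (0.58, adjusted p = 0.0478), with 5 of 6 fits losing the GATA2 call. FLT3, the mutated receptor itself, was at 13442 to 13918 with SAHA, against 14875 to 15166 with DMSO (log2 change −0.13, SE 0.0893, adjusted p = 0.55). MYC (−0.17, adjusted p = 0.415) and MEIS1 (−0.29, adjusted p = 0.212) were not called. PTP4A3, the phosphatase PRL-3, gave signals of 2096, 1839.6 and 1840 with SAHA, against 3057, 2622 and 2682 with DMSO (log2 change −0.53, SE 0.127, adjusted p = 0.0422), and this call was lost with any 1 array left out (adjusted p up to 0.202 over the alternatives).

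Several lists had few calls. Of 18 cholesterol synthesis genes EBP (−0.46, adjusted p = 0.0265) and ACAT2 (−0.42, adjusted p = 0.0327) fell (11.1%, beside 3.28% of all genes). Both calls were lost with any 1 array left out. Of 36 neuronal genes that REST keeps off in other cells, 1 rose and 1 fell (2.78% each, beside 4.72% and 3.28% of all genes). The adhesion molecule L1CAM rose (1.24, adjusted p = 0.0304). The vesicle protein SYT4 fell (−0.69, adjusted p = 0.0098), a call lost with a floor of 1, with a floor of 64 and with only the 6 SAHA and DMSO arrays. Of 21 ribosome biogenesis genes 1 rose (4.76%, near the 4.72% of all genes). It was the polymerase subunit POLR1F (0.60, adjusted p = 0.0239), and this call was lost with any 1 array left out. L1CAM lost its call in 4 of the 6 such fits. No member was called among 12 STAT5 targets, 22 genes of glycolysis and hypoxia and 25 markers of other cell types. This holds for the probe set that stands for each gene: of the last list, COL1A1 and MS4A1 were called by other probe sets.

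The combination against ABT-869 alone asks what SAHA did in cells that also had the FLT3 inhibitor, on 6 other arrays of MV4-11. Their values do not enter the SAHA and DMSO means. Both contrasts take their spread from the same fit of the 12 MV4-11 arrays, so their calls are not fully separate. There 1942 probe sets rose (3.56%) and 1706 fell (3.12%), and by gene 5.89% rose and 4.78% fell. Rises made up 53.2% of these calls, but 78.4% with each array centred on its median. With any 1 of these 6 arrays left out, 1187 to 1496 rose and 1135 to 1456 fell. ABT-869 replicate 2 deviated most from its group among all 24 arrays (SD of its deviations 0.351 on the log2 scale), and without it 1496 rose and 1325 fell. Of the 1598 probe sets that SAHA alone raised, 1460 (91.4%) were also higher there, where 47.1% of the probe sets above the floor on all 6 SAHA and DMSO arrays had a positive change, and 773 were called higher (48.4% of those SAHA raised, 39.8% of those called higher there). Of the 1166 that SAHA alone lowered, 1004 (86.1%) were lower, where 52.9% of those probe sets had a negative change, and 483 were called lower (41.4% of those SAHA lowered, 28.3% of those called lower there). The median change there was 0.47 for the raised probe sets and −0.42 for the lowered ones. Calls in the opposite direction numbered 15 and 19. Among monocyte genes MNDA was 1679 to 1873 with the combination, against 248 to 319.5 with ABT-869 alone (2.58, adjusted p = 2.96e-05), and LY96 was 1770.1 to 1834 with the combination, against 563 to 736 with ABT-869 alone (1.46, adjusted p = 0.000189). S100A8 went the other way, at 469.7 to 653 with the combination, against 956 to 1529.6 with ABT-869 alone (−1.08, adjusted p = 0.0151), as did S100A9 (−1.20, adjusted p = 0.00683). In all, 7 of the 58 monocyte genes rose and 4 fell in this contrast (2 to 4 with any 1 array left out). Of the 39 ATF4 genes 14 fell (9 to 14 with any 1 array left out) and 3 rose (1 to 2), with a median of −0.39. CHAC1 was at 12.1 to 40.9 with the combination, against 318 to 332 with ABT-869 alone (−3.23, adjusted p = 3.72e-06), TRIB3 changed by −0.61 and ASNS by −0.42 (adjusted p = 0.0509). CEBPB was higher there (0.38, adjusted p = 0.0265). All 35 mitosis genes fell in this contrast (33 to 35 with any 1 array left out), with a median of −1.31, and so did 25 of 38 replication genes. HMMR was at 959 to 1127 with the combination, against 3696 to 4687 with ABT-869 alone (−1.92, adjusted p = 0.000111). Whether these sizes differ from those with SAHA alone was not tested.

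MOLM-14 was given the same drug on 6 arrays of its own. There 2809 probe sets rose (5.14%) and 2631 fell (4.82%), and by gene 8.24% rose and 7.20% fell. These calls come from the fit over all 24 arrays, while the 1598 and 1166 of MV4-11 come from its own arrays. In the fit over all 24 arrays MV4-11 had 2621 rises and 2152 falls, so the numbers and shares of calls are not on 1 footing. Of the 1598 probe sets raised in MV4-11, 1403 (87.8%) were higher in MOLM-14, where 42.4% of the same probe sets above the floor had a positive change, and 853 were called higher (53.4% of those raised in MV4-11, 30.4% of those raised in MOLM-14). Of the 1166 lowered in MV4-11, 956 (82.0%) were lower, where 57.6% of those had a negative change, and 445 were called lower (38.2% of those lowered in MV4-11, 16.9% of those lowered in MOLM-14). The changes of the 2 lines were then set against each other in a fit over all 24 arrays, where 2.10% of genes had a higher change in MV4-11 than in MOLM-14 and 1.95% a lower one. Of the probe sets, 666 had a higher and 638 a lower change (51.1% higher), but 133 and 708 (15.8% higher) with each array centred on its median. Centring moved the difference by a median of −0.16 over probe sets above the floor on all 24 arrays. With any 1 of the 12 SAHA and DMSO arrays left out, 337 to 621 had a higher and 353 to 632 a lower change, the fewest without SAHA replicate 2 of MOLM-14.

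Of the 39 genes of the ATF4 list 15 fell in MOLM-14 too (11 to 15 with any 1 array left out, beside 7.20% of all genes) and 1 rose, with a median of −0.24. Set against each other, 15 genes had a lower change in MV4-11 than in MOLM-14, and 1 had a higher one. TRIB3 gave 2256 to 2492 with SAHA, against 2627 to 3084 with DMSO in MOLM-14, and its difference between the lines was −2.25, SE 0.144, adjusted p = 4.68e-07. ASNS gave 1571 to 1692 with SAHA, against 1744 to 1982 with DMSO in MOLM-14 (difference −1.71, SE 0.12, adjusted p = 8.95e-07). DDIT3 gave 409 to 510.4 with SAHA, against 520.3 to 618 with DMSO in MOLM-14 (difference −1.78, SE 0.238, adjusted p = 0.000495). None of the 3 was called in MOLM-14. CEBPB, at 1583 to 1737 with SAHA, against 1224 to 1585 with DMSO in MOLM-14, differed by −1.67, SE 0.13, adjusted p = 2.23e-06. For CHAC1 no difference was called: it fell in both lines, at 40 to 90.2 with SAHA, against 208 to 358 with DMSO in MOLM-14, and the difference was −0.19 (SE 0.556). Metallothioneins differed as well, 6 of 7 being lower in their response in MV4-11, with MT2A at 5745 to 6018 with SAHA, against 6586 to 7324 with DMSO in MOLM-14 (difference −1.35, SE 0.206, adjusted p = 0.00148).

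Of the 36 surface receptors of the monocyte list 13 rose in MOLM-14 and none fell, and of all 58 genes of the list 18 rose and 3 fell there. TREM1 changed by 2.73 in MOLM-14, with a difference of −0.02 (SE 0.517), and CD86 by 1.83, with a difference of −0.04 (SE 0.327). MNDA rose in both but by 1.30 more in MV4-11 (adjusted p = 0.00241). The calprotectin pair rose in MV4-11 and fell in MOLM-14. S100A8 gave 1192 to 2004 with SAHA, against 3112 to 4443 with DMSO in MOLM-14 (difference 3.55, SE 0.313, adjusted p = 9.29e-06), and S100A9 gave 288 to 344 with SAHA, against 666 to 910 with DMSO in MOLM-14 (difference 2.75, SE 0.279, adjusted p = 5.36e-05). The granule proteinase PRTN3 had the same opposition (−0.76, adjusted p = 0.00263 in MOLM-14, difference 1.79, SE 0.213, adjusted p = 0.000203). MPO, not called in MV4-11, gave 246 to 594 with SAHA, against 1971 to 2607 with DMSO in MOLM-14 (difference 2.32, SE 0.407, adjusted p = 0.00467), and the acid phosphatase ACP3 gave 1414 to 1482 with SAHA, against 2009.6 to 2619 with DMSO (difference 2.08, SE 0.183, adjusted p = 9.29e-06).

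IFIT1, IFIT2 and IFIT3 were the reverse, lower with SAHA in MV4-11 and higher in MOLM-14. IFIT3 gave 509 to 584 with SAHA, against 119 to 242 with DMSO in MOLM-14 (difference −3.42, SE 0.321, adjusted p = 2.11e-05). IFIT1 gave 315 to 390.1 with SAHA, against 96.9 to 199 with DMSO in MOLM-14 (difference −3.19, SE 0.454, adjusted p = 0.000944), and IFIT2 gave 281 to 478 with SAHA, against 149.9 to 257 with DMSO (difference −2.70, SE 0.351, adjusted p = 0.000398). S100P, a calcium-binding protein, and the ribosomal protein RPL38 were likewise lower in MV4-11 and higher in MOLM-14, with differences of −2.06 (adjusted p = 0.000258) and −2.64 (adjusted p = 0.00311). Of the 3 RPL38 probe sets 1 was called in MV4-11, and this call was lost in 5 of the 6 fits that left out 1 array. IL31RA, a cytokine receptor, and the membrane protein TM6SF1 rose in MOLM-14 and were not called in MV4-11, with differences of −2.41 and −2.24. The replication genes differed in the opposite sense: 32 of 38 fell in MOLM-14, and 20 had a higher change in MV4-11, against 11 after centring. MCM7 gave 2191 to 2869 with SAHA, against 5476 to 8273 with DMSO in MOLM-14 (difference 1.09, SE 0.191, adjusted p = 0.00479). CCNE2 fell in MOLM-14 (−1.16, adjusted p = 6.41e-05) and rose in MV4-11, with a difference of 1.84, SE 0.213, adjusted p = 0.000159. ESCO2, which acetylates cohesin, had 53 to 152 with SAHA, against 328 to 689 with DMSO in MOLM-14 (difference 2.02, SE 0.462, adjusted p = 0.0256), and the p53-induced nuclease AEN had a difference of 2.10. These 2 differences were lost in 6 and 2 of the 12 fits that left out 1 array. For mitosis genes, 22 of which fell in MOLM-14, 3 had a higher change in MV4-11, against 0 after centring, and 1 had a lower change, the last being HMMR (−1.03, SE 0.187, adjusted p = 0.00605).

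**Figure D4:**
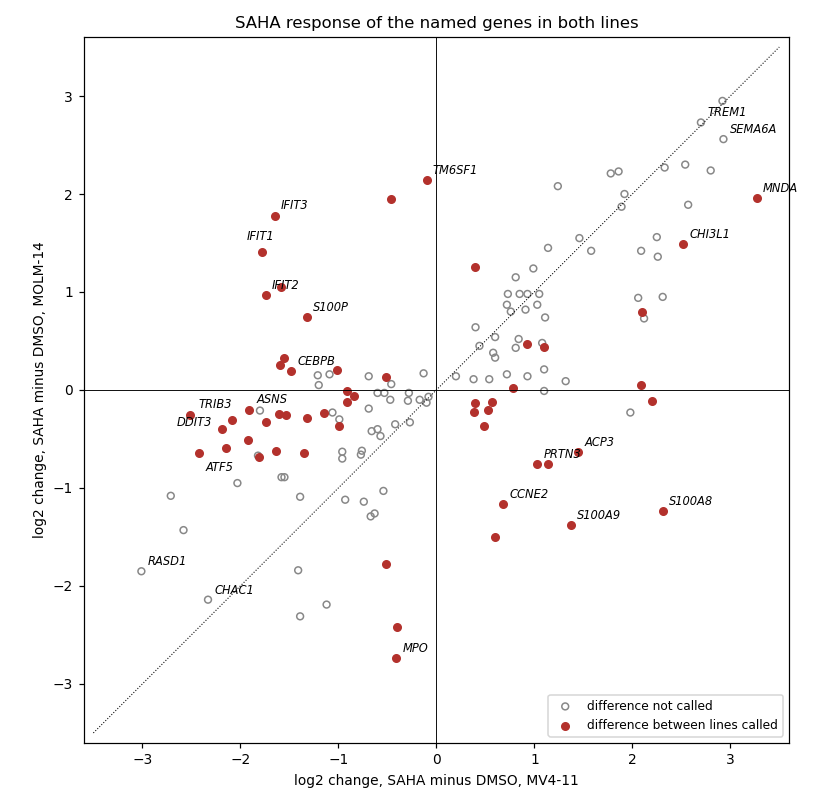
Log2 change with SAHA against DMSO of the named genes in MV4-11 (horizontal) and in MOLM-14 (vertical), 1 point a gene, in red where the difference between the lines was called. S100A8 and S100A9 lie at lower right, IFIT1, IFIT2 and IFIT3 at upper left, and TRIB3, ASNS and DDIT3 far to the left near 0 for MOLM-14.

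SAHA was also set against ABT-869, the other single drug, in MV4-11. This contrast shares the SAHA arrays with SAHA against DMSO, so its values are given side by side only. By gene 4.60% were higher with SAHA and 3.21% were lower. Of the called probe sets 55.2% were higher with SAHA, but 88.2% with each array centred on its median. Against 1476 higher and 1199 lower, 713 to 1268 were higher and 454 to 896 lower with any 1 array of the contrast left out. CHI3L1 was at 18306 to 19834 with SAHA, against 3250.1 to 3503 with ABT-869 (2.51, adjusted p = 7.63e-06). MNDA was at 1893 to 2108 with SAHA, against 248 to 319.5 with ABT-869 (2.77, adjusted p = 1.02e-05), and TREM1 at 367 to 401 with SAHA, against 52.4 to 89 with ABT-869 (2.51, adjusted p = 0.00497). These 3 were therefore higher with SAHA than with either DMSO or ABT-869. PIM1, a kinase gene that FLT3 and STAT5 switch on, was at 3378 to 4148 with SAHA, against 496 to 600.5 with ABT-869 (2.75, adjusted p = 1.81e-05), while its change against DMSO was 0.39 and not called. TM6SF1 had a similar pattern, with 2.30 against ABT-869 and −0.10 against DMSO. FEZ1, an adaptor of kinesin, was higher in both, with 2.34 against ABT-869 and 1.78 against DMSO. SEMA6A (2.83) and STAP1 (2.25) were also higher with SAHA than with ABT-869. RASD1 was lowest, at 68.5 to 218 with SAHA, against 1947 to 2299.9 with ABT-869 (−4.26, adjusted p = 0.00046). TERT was at 93.2 to 193 with SAHA, against 724 to 901 with ABT-869 (−2.48, adjusted p = 0.00123). The B cell adaptor BLNK was at 57.6 to 123 with SAHA, against 417 to 529 with ABT-869 (−2.45, adjusted p = 0.00236), and the membrane protein MS4A6A at 148 to 276 with SAHA, against 842 to 915 with ABT-869 (−2.22, adjusted p = 0.0007). All 4 were lower with SAHA on every array than with ABT-869 on any. ATP6V1C2 (−2.27), OR7E47P (−2.21), CUX2 (−2.15) and TIFAB (−1.90) had the next lowest values. Of the ATF4 list 6 genes were lower and 1 was higher with SAHA than with ABT-869, and the median was −0.10. Of the mitosis list 16 were lower, with a median of −0.40.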

How the data were processed

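Cells of MV4-11 and MOLM-14, grown in RPMI1640 medium with fetal bovine serum, were treated for 24 hours, RNA was extracted with the RNeasy Midi Kit, and labelled cRNA was hybridised to Affymetrix U133 Plus 2.0 arrays, 1 array per sample. The deposited values are linear intensities, 1 signal per probe set, that the authors summarised from its probes. Every array had a trimmed mean of 500.06 to 500.07 with 2% removed at each end, so the arrays had been scaled to a common mean. The software and the background correction were not given in the sources used here. Low signals are noisy, and scaling to a common mean removes any change in total RNA per cell.

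Of 54675 probe sets, 62 control probe sets were left out and 54613 were tested. The platform annotation named 1 gene for 41091 of them, several for 1801 and none for 11721, and 41037 symbols were updated through their gene ID, while 54 IDs had no match. Signals below 32 were set to 32, log2 was taken, and limma 3.58.1 in R 4.3.3 (lmFit and eBayes) was fitted to the 12 MV4-11 arrays in 4 groups. P-values were adjusted by Benjamini-Hochberg over all probe sets, and a call means an adjusted p under 0.05. MOLM-14 and the difference between the lines came from a limma fit of 24 arrays in 8 groups. A gene is represented by the probe set naming it alone with the highest mean log2 signal over the 24 arrays, which gave 19775 genes. Every adjusted p in the text comes from these limma fits. The number of arrays limits the precision.

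The genes named are the largest called rises and falls above the floor without overlap, those at the floor in all arrays of 1 group, the largest members of each gene list, a set of targets whatever their values, and the largest differences between lines and between drugs. Members and lists were chosen with earlier results of these data known. The code was tested on simulated data with known changes. Alternatives were the floor, a filter, quantile normalization, centring on the median, limma-trend, the arrays in the fit, a replicate block and each array left out, the last added after seeing the data for the contrasts other than SAHA minus DMSO in MV4-11. No 2 arrays shared most of their values. Same-numbered SAHA and DMSO arrays did not deviate together (r = −0.0685, −0.102 and 0.0514 over 29556 probe sets), so the numbers were not taken as pairs.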

Additional observations from a re-analysis of the deposited data

Results flagged for a closer look

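The response to SAHA differed between MV4-11 and MOLM-14, by an interaction term in the limma fit of all 24 arrays, for 55 of the 148 named genes, with 23 differences above 0 and 32 below. Over all genes 2.10% had a higher and 1.95% a lower difference. Of the 55, 15 were named for the size of this difference, which raises the count. With each array centred on its median, 42 of the 55 kept their call, 11 above 0 and 31 below, and none changed sign. Each value that follows is the log2 change in MV4-11 minus the log2 change in MOLM-14. For 12 genes the 2 lines were called in opposite directions. Of these, S100A8 (3.55), S100A9 (2.75), PRTN3 (1.79), CCNE2 (1.84), HSPE1 (0.86), ACP3 (2.08) and CAMK4 (1.90) were called higher in MV4-11 and lower in MOLM-14. IFIT1 (−3.19), IFIT2 (−2.70), IFIT3 (−3.42), RPL38 (−2.64) and S100P (−2.06) were called lower in MV4-11 and higher in MOLM-14.

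Among myeloid genes the difference was positive for MPO (2.32), MNDA (1.30), CHI3L1 (1.03), MS4A6A (1.27), RNASE2 (0.66), LYZ (0.60) and DPEP2 (2.04), and negative for the complement receptor C5AR1 (−1.22). Among genes of the ATF4 list and its neighbours it was negative for TRIB3 (−2.25), ATF5 (−1.78), DDIT3 (−1.78), CEBPB (−1.67), SLC7A5 (−1.56), ASNS (−1.71), CTH (−1.41), AARS1 (−0.62), YARS1 (−0.79), CARS1 (−0.90) and GARS1 (−0.78). It was positive for ALDH18A1 (0.46) and for FARSA (0.52). Of 7 metallothioneins 6 had a lower change in MV4-11, among them MT1E (−1.41), MT2A (−1.35), MT1X (−1.27), MT1G (−1.13) and MT1H (−1.01).

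The histone deacetylase genes differed for HDAC4 (0.73) and HDAC9 (−0.91). Genes of replication, division and death differed for RPA1 (0.69), HMMR (−1.03), ESCO2 (2.02), BAX (0.76), PMAIP1 (−0.72) and AEN (2.10). The other differences were those of TMEM201 (2.30), INPP4B (1.31), KCNG1 (−1.79), SLC4A1 (−1.88), BAIAP2L2 (−1.85), HLA-G (−0.64), IL31RA (−2.41), TM6SF1 (−2.24) and PIM1 (−0.86). After centring the 13 differences no longer called were those of TMEM201, INPP4B, DPEP2, SLC4A1, RNASE2, ALDH18A1, FARSA, HDAC4, RPA1, BAX, HSPE1, LYZ and MS4A6A, with adjusted p from 0.0583 to 0.419. With 1 of the 12 arrays of the difference left out in turn, 41 of the 55 stayed called in every fit. Those lost in at least 1 fit were TMEM201, INPP4B, KCNG1, DPEP2, SLC4A1, BAIAP2L2, ALDH18A1, FARSA, HDAC4, PMAIP1, HLA-G, AEN, ESCO2 and PIM1, with a highest adjusted p of 0.138. Groups of 3 arrays are too small for a test of single arrays.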

How the results depend on the processing

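Of the 130 named probe sets called in MV4-11, 77 kept their call under all 16 alternatives and 53 lost it under at least 1, while 4 of 20 not called became called under at least 1. No named probe set changed sign with a call. Calls lost numbered 35 with a floor of 1, 34 with only the 6 SAHA and DMSO arrays, 20 with the replicate block, 17 after centring and 25 to 30 with 1 array left out. Against 1598 rises and 1166 falls, a floor of 1 gave 801 and 544, the 6 arrays alone gave 866 and 683, all 24 arrays gave 2621 and 2152, and leaving out 1 array gave 782 to 950 and 523 to 672. Centring gave 499 falls. Replicate numbers did not pair the arrays, and a replicate block gave 1011 rises and 676 falls. For SAHA minus ABT-869, with 1476 rises and 1199 falls, a floor of 1 gave 743 and 476, centring gave 2489 and 332, and the block gave 967 and 646. For the combination minus ABT-869 a floor of 1 gave 1032 rises and 991 falls, and centring gave 711 falls. Fits without 1 array, added for these contrasts after seeing the data, gave 713 to 1268 rises and 454 to 896 falls for SAHA minus ABT-869, 1187 to 1496 and 1135 to 1456 for the combination minus ABT-869, 337 to 621 higher and 353 to 632 lower line differences, and 1909 to 2683 rises and 1725 to 2230 falls for SAHA minus DMSO in MOLM-14. For the line difference a floor of 1 gave 344 and 327, and centring gave 133 higher differences. Of the mitosis list 16 genes fell, against 7 with a floor of 1, 4 after centring, 6 with 6 arrays, 25 with 24 arrays, 8 with the block and 6 to 8 without 1 array. Of the lysosome list 9 rose, against 5 with a floor of 1, 4 with 6 arrays, 14 with 24 arrays, 5 with the block and 4 to 6 without 1 array. The ATF4 list had 20 to 32 falls and the monocyte list 14 to 24 rises under all alternatives, and the ATF4 median was −0.72 over all probe sets of each gene. The 6 arrays alone and the fits without 1 array have fewer degrees of freedom, and the cause of the other shifts was not tested. Probe sets near the floor have only a weak signal over background.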

Other observations

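Genes of intraflagellar transport, the particle trains that carry cargo along the primary cilium, were higher with SAHA. The family was chosen after its values were seen, so its counts are a description without a test. Of 18 IFT genes measured in MV4-11, 10 were called higher and 0 lower (55.6%), with a median log2 change of 0.71, beside 4.72% of all genes called higher. IFT43 gave signals of 363, 385 and 378 with SAHA, against 188, 99.9 and 101 with DMSO (log2 change 1.60, SE 0.236, limma adjusted p = 0.00534). IFT57, a subunit of the anterograde complex, gave 860, 957 and 937 with SAHA, against 445, 629 and 532 with DMSO (0.79, adjusted p = 0.00901). In both genes the lowest SAHA array lay above the highest DMSO array. IFT70B (1.14), IFT22 (1.08), IFT70A (0.99), IFT27 (0.82), IFT80 (0.76), IFT20 (0.71), IFT25 (0.70) and IFT52 (0.63) were the other 8. In MOLM-14 5 of the 18 were called higher with SAHA and 0 lower, beside 8.24% of all genes called higher there. For the combination minus ABT-869 in MV4-11 6 were called higher and 0 lower, beside 5.89% of all genes called higher. Of 9 genes of the BBSome group 1 was called (11.1%), TTC8 (1.66). Of 44 genes with a CFAP symbol 3 were called higher (6.82%, near the 4.72% of all genes), CFAP263 (1.64), CFAP36 (0.61) and CFAP68 (0.50). Only 17 of the 44 were above the floor on all 6 arrays. These counts use the probe set that stands for each gene. Among the called genes, 1 of 3 probe sets was called higher for IFT43, IFT57 and IFT27. The number was 1 of 2 for IFT22 and IFT52, 2 of 4 for IFT80, 2 of 3 for IFT25, 2 of 2 for IFT70B and 1 of 4 for CFAP68. IFT70A, IFT20, TTC8, CFAP263 and CFAP36 had 1 probe set each. By another probe set, IFT56 (1.03), BBS9 (1.99), CFAP251 (1.60), CFAP410 (1.33) and CFAP44 (1.20) were called higher. The fits with 1 array left out were not read for these families.

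Genes of leukotriene synthesis were also read after their values were seen. Of 13 genes of arachidonate metabolism 3 rose (23.1%, beside 4.72% of all genes) and none fell, with a median log2 change of 0.22. ALOX5AP, which presents arachidonate to 5-lipoxygenase, gave signals of 3413, 3339 and 3574 with SAHA, against 1277, 1239 and 1405 with DMSO (log2 change 1.40, SE 0.0914, adjusted p = 0.000103). The lipoxygenase ALOX5 gave 438, 473 and 427 with SAHA, against 214, 157 and 140.1 with DMSO (1.41, adjusted p = 0.011). Of its 4 probe sets 2 were called higher. LTA4H, which makes leukotriene B4, gave 11918, 11523 and 12382 with SAHA, against 6587, 6859 and 6678 with DMSO (0.83, adjusted p = 0.00193). Each of the 3 rose without overlap between the groups. LTC4S, which makes leukotriene C4, was not called (−0.05, adjusted p = 1.0). All 3 were also called higher in MOLM-14, by 1.71 for ALOX5AP, 1.61 for ALOX5 and 0.88 for LTA4H.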
